A study of Homo sapiens with 6 samples.

Results

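The mitochondrial ribosomal protein genes were examined in CFPAC-1 cells, a cultured line from a human pancreatic ductal carcinoma, after SULF2 knockdown. Members were the genes of the deposited table whose symbol is MRPL or MRPS followed by a number and at most a letter A to C, with at least 1 TPM in at least 2 of the 6 libraries. The TPM value is a transcript's level per length, scaled so that every library has the same total. The rule gave 78 members of 16610 genes that passed the same filter, out of 59962 rows, with 49 named for the large subunit (MRPL) and 29 for the small subunit (MRPS). All 78 genes with such a symbol passed the filter and lay at or above 1 TPM in all 6 libraries, so none fell outside it.

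The study compared 3 groups of CFPAC-1 cells with 2 libraries each. The control group, titled LACZ_1 and LACZ_2, carried a guide RNA against LACZ, a bacterial gene that human cells lack. The other groups carried sgRNA1 (S1_1 and S1_2) or sgRNA3 (S3_1 and S3_2) against SULF2, which encodes an extracellular enzyme that trims sulfate from heparan sulfate chains. The labels do not say how the guides act on SULF2, nor whether a group's libraries are separate cultures or a single clone. The p-values below therefore measure only the spread between these libraries, which may be technical. SULF2 itself, the targeted gene, measured 25.69 and 22.52 TPM in the LACZ libraries. It measured 8.98 and 12.81 TPM in the sgRNA1 libraries and 10.07 and 9.24 TPM in those of sgRNA3, which are 45.2% and 40.1% of the LACZ mean.

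The mitochondrial ribosome translates the messages of the mitochondrial genome, which encode core subunits of the respiratory chain and of ATP synthase. Its large subunit holds the 16S rRNA (MT-RNR2) and the peptidyl transferase centre, and its small subunit holds the 12S rRNA (MT-RNR1) and decodes the message. Both rRNAs come from the mitochondrial genome, but every protein of the particle is encoded in the nucleus, made in the cytosol and imported. Some of these proteins descend from bacterial ribosomal proteins and others were added during the evolution of mitochondria.

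The genes are scattered over the genome. In GENCODE 29 (GRCh38) the 78 members lay on 21 chromosomes, with at most 8 on the same chromosome (chromosome 17). A protein-coding gene began on the opposite strand within 1000 bases of the start, in a head-to-head arrangement, for 18 of 78 members (23.1%), and for 1411 of 12931 protein-coding genes tested (10.9%). Among these pairs, MRPS11 (chr15:88467453-88480773, plus strand) and MRPL46 (chr15:88459476-88467419, minus strand) are a small-subunit and a large-subunit gene that face each other. MRPS11 measured 50.94 and 69.40 TPM in LACZ, 65.64 and 61.59 with sgRNA1, and 52.65 and 67.15 with sgRNA3, and MRPL46 measured 38.86 and 33.31, 36.78 and 40.26, and 41.99 and 42.03 TPM. Neither passed the test described below, and their values did not rank the libraries alike. RefSeq promoter windows of 300 bases (250 before and 50 after a start, GRCh38.p14) were at hand for 69 of 78 members, all but MRPL2, MRPL10, MRPL13, MRPL15, MRPL21, MRPL23, MRPL35, MRPS28 and MRPS36. They were searched on both strands for CCGGAAG, the core of the ETS family element that GABPA binds, and for AAGATGGC, the element of YY1. The ETS core occurred in 30 of 69 members (43.5%), against 22.2% of the 10611 tested genes with a window and 12.2% of all genes in the promoter table. The YY1 element occurred in 21 of 69 members (30.4%), against 6.34% of tested genes and 3.52% of all genes in the table. At least 1 of these elements occurred in 43 members (62.3%), against 26.8% of tested genes. The letters AAG can belong to both elements at once, and 8 members held both. By subunit, the ETS core lay in 42.9% of large-subunit and 44.4% of small-subunit members with a window, and the YY1 element in 31% and 29.6%.

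Other elements had shares close to those of all tested genes. The NRF1 element occurred in 9 of 69 members (13%), against 13.1% of tested genes, and the E-box CACGTG also in 9 (13%), against 12.4%. The ATF4 element TGATGCAA was in no member window and in 0.679% of those of tested genes. These counts describe letters in a window, and a match is not evidence of binding.

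Of the 7 members that passed the expression test described below, 4 held the ETS core in a window: MRPS22, MRPS23, MRPS34 and MRPL3. Their upstream sequences are shown to make that shared element visible. Each runs 5′ to 3′ on the gene's strand from RefSeq (GRCh38.p14), capitals mark CCGGAAG or its reverse complement, and bases in exons were trimmed where more than 30 fell in the stretch. The stretches are chr3:139343744-139343955 (plus strand) for MRPS22, chr17:57850045-57850294 (minus) for MRPS23, chr16:1773156-1773206 (minus) for MRPS34 and chr3:131502972-131503221 (minus) for MRPL3.
MRPS22: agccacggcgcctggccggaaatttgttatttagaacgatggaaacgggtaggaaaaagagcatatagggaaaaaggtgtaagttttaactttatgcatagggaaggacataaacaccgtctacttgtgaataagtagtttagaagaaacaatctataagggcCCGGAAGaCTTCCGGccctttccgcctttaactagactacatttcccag
MRPS23: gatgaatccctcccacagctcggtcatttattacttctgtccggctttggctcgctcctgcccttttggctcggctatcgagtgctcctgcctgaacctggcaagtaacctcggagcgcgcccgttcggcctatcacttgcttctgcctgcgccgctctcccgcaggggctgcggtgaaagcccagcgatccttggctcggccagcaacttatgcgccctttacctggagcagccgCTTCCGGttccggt
MRPS34: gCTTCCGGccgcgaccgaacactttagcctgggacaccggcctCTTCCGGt
MRPL3: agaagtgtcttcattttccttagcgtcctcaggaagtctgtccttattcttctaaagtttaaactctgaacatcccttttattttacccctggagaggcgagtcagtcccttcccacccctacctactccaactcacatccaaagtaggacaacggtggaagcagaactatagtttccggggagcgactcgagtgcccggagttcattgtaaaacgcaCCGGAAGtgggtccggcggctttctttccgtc
MRPS22 carries a facing pair of the element, a base apart, MRPS34 carries 2 copies in the stretch shown, and MRPS23 and MRPL3 carry 1 copy each. The window of MRPS34 also covers the start of EME2, its head-to-head neighbour. MRPL32 and MRPS7 held the YY1 element, and MRPL1 held neither. Over members with a window, those with the ETS core had a median LACZ level of 81.7 TPM (n = 30) and those without it 61.7 TPM (n = 39). Their median log2 changes were 0.06 and 0.09 with sgRNA1, and 0.13 and 0.11 with sgRNA3.

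Mitochondrial ribosomal protein genes were well expressed in the control cells. Their median level in LACZ was 69.1 TPM, with an interquartile range of 45.8 to 96.2 TPM, against a median of 13.5 TPM over all genes tested. The median was 74.4 TPM for large-subunit and 66.5 TPM for small-subunit members. MRPS6, which encodes a bacterial-type small-subunit protein, was highest with 440.91 and 428.76 TPM in LACZ. Its exons overlap those of the transporter gene SLC5A3 on the same strand (chr21:34073224-34143034), and the counting of shared reads is not given, so the level of this gene is uncertain. In the small subunit MRPS24 and MRPS18C followed with LACZ means of 164 and 104 TPM, and MRPS31 (18.2), MRPS25 (22) and MRPS17 (22.6 TPM) were lowest. MRPS24 and MRPS17 share exons with the readthrough gene URGCP-MRPS24 and with NIPSNAP2.

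In the large subunit MRPL33 was highest, with 359.97 and 318.06 TPM in LACZ, and it shares exons with BABAM2. MRPL52 (188 TPM) and MRPL20 (164 TPM) followed, the first specific to mitochondria and the second of bacterial type. MRPL30 (20.0), MRPL57 (12.8) and MRPL50 (5.69 TPM) were lowest. MRPL50, which lay nearest to the expression filter, measured between 5.39 and 7.02 TPM over the 6 libraries. Exons of 16 members overlap another gene on the same strand and exons of 29 overlap 1 on the opposite strand, and strandedness is not given, so values of such genes may include reads of the neighbour. A further 78 rows carried MRPL or MRPS symbols outside the rule, 75 of them pseudogenes, and 5 reached 1 TPM in 2 libraries. The highest single value was 40.39 TPM, for MRPL45P2 in LACZ_1, and that row lay between 8.01 and 20.31 TPM in the other libraries. MRPL20-AS1 ranged from 12.02 to 25.95 TPM.

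**Figure D1:**
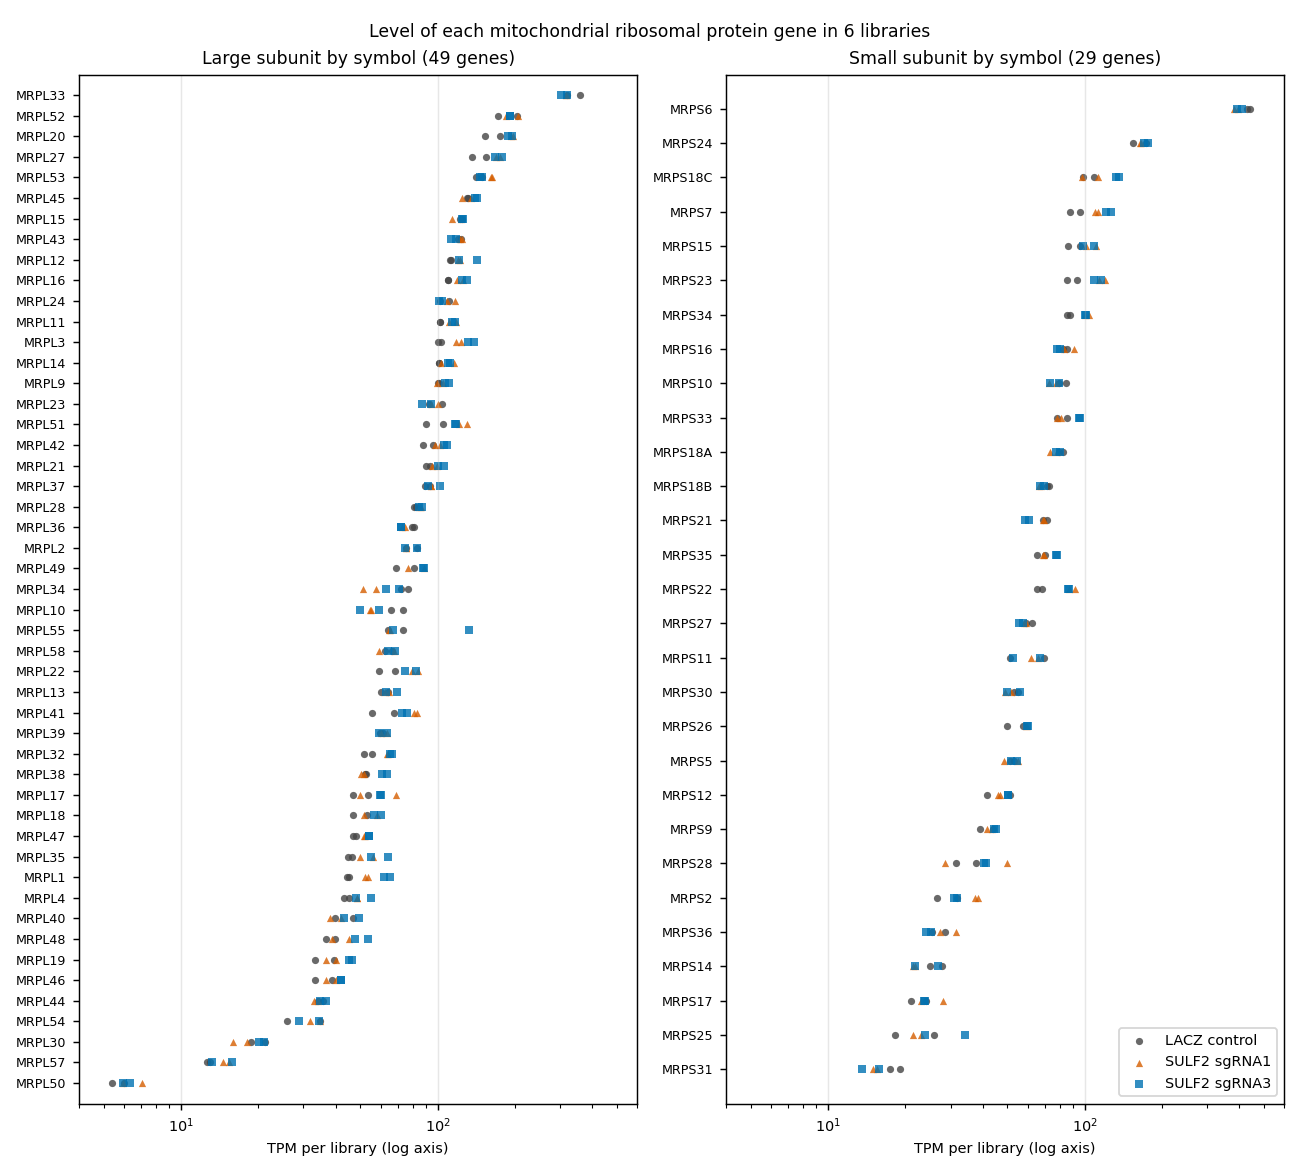
Level of each member in the 6 libraries, in TPM on a log axis, with large-subunit genes in the left panel and small-subunit genes in the right, ordered by their LACZ mean. Points are libraries, coloured by group: MRPS6 and MRPL33 stand highest, MRPL50 lowest, and for most genes the 6 points lie close together.

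Levels of members were tight between libraries. The median absolute log2 difference between the libraries of a group for members was 0.11 in LACZ, 0.07 in sgRNA1 and 0.06 in sgRNA3, against 0.14, 0.15 and 0.13 for all genes tested, which include many at lower levels. The median coefficient of variation over the 6 libraries was 8.42% for members and 16.6% for all genes tested. An exception, picked out after its values were seen, was MRPL55, a protein of the large subunit. It measured 63.95 and 73.15 TPM in LACZ, 64.45 and 65.11 with sgRNA1, and 66.91 and 132.00 with sgRNA3. Only S3_2 stood apart, and the log2 change of 0.45 with sgRNA3 had a standard error of 0.31 and did not pass (limma adjusted p = 0.395).

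With sgRNA1, 2 of 78 members rose and 0 fell at a limma adjusted p below 0.05 over all 16610 genes (2.56%), against a background of 6 percent of all genes tested. Upward calls made up 1.69 percent and downward calls 4.31 percent of all genes. Both members that rose, MRPS22 and MRPS23, belong to the small subunit, so the count was 2 of 29 there and 0 of 49 in the large subunit. Before adjustment 17 members were higher and 3 lower at a limma p below 0.05, against 1389 higher and 2696 lower of all 16610 genes. With sgRNA3, 7 of 78 members rose and 0 fell (8.97%), against a background of 9.08 percent, with 3.84 percent of all genes called upward and 5.25 percent downward. They were MRPS22, MRPS23, MRPS7 and MRPS34 of the small subunit (4 of 29) and MRPL1, MRPL3 and MRPL32 of the large subunit (3 of 49). Before adjustment 26 were higher and 5 lower, against 1939 higher and 2707 lower of all genes. Counted in either direction, the share of members called was thus below the background with sgRNA1 and close to it with sgRNA3. With the filter at 5 TPM it was below with both guides, at 7.69% against 11.3% (sgRNA1) and 12.8% against 15.2% (sgRNA3). The sgRNA1 relation turned with scaling: 11.5% of members against 7.15% of all genes passed with median-of-ratios scaling, and 8.97% against 6.03% with quantile normalization. In the main fit all called members rose, and their share lay above that of upward calls over all genes. It was 2.56% against 1.69 percent with sgRNA1, on only 2 members, and 8.97% against 3.84 percent with sgRNA3. Both comparisons share the LACZ libraries.

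MRPS22 encodes a small-subunit protein with no bacterial counterpart. It measured 68.07 and 65 TPM in LACZ (66.5 ± 2.17, SD, n = 2), 86.49 and 91.56 with sgRNA1 (89.0 ± 3.59) and 86.68 and 86.30 with sgRNA3 (86.5 ± 0.269). All 4 SULF2 guide libraries lay above both LACZ libraries. Its log2(TPM + 1) rose by 0.41 with sgRNA1 (SE 0.055, limma adjusted p = 0.0199) and by 0.37 with sgRNA3 (adjusted p = 0.0218). MRPS23, another mitochondria-specific small-subunit protein, measured 92.93 and 85.08 TPM in LACZ, 119.97 and 113.93 with sgRNA1, and 108.41 and 116.17 with sgRNA3. The guide libraries again lay above both LACZ libraries, and it rose by 0.39 with sgRNA1 (SE 0.068, adjusted p = 0.0380) and by 0.33 with sgRNA3 (adjusted p = 0.0455). These were the members that passed with both guides.

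MRPS7 encodes the counterpart of bacterial S7, which organises the head of the small subunit. It measured 87.90 and 95.50 TPM in LACZ, 113.09 and 109.94 with sgRNA1, and 126.15 and 120.93 with sgRNA3. The sgRNA3 libraries were highest and the LACZ libraries lowest, with no overlap among the 3 groups. It rose by 0.43 on the log2 scale with sgRNA3 (SE 0.059, limma adjusted p = 0.0187), and its change of 0.28 with sgRNA1 did not pass (adjusted p = 0.0582). MRPS34, a mitochondria-specific small-subunit protein, measured 87.40 and 85.55 TPM in LACZ, 100.05 and 103.83 with sgRNA1, and 101.03 and 100.45 with sgRNA3. Libraries of either guide lay above LACZ and overlapped each other. It rose by 0.22 with sgRNA3 (SE 0.046, adjusted p = 0.0487), and its change of 0.23 with sgRNA1 did not pass (adjusted p = 0.0510).

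In the large subunit the largest called change was that of MRPL1, the counterpart of bacterial L1, which forms the mobile stalk beside the tRNA exit site. It measured 45.28 and 44.47 TPM in LACZ, 52.32 and 53.75 with sgRNA1, and 61.67 and 65.13 with sgRNA3. The 3 groups did not overlap, in the order LACZ, sgRNA1, sgRNA3. It rose by 0.49 with sgRNA3 (SE 0.058, limma adjusted p = 0.0131), against 0.24 with sgRNA1 (adjusted p = 0.0801). The direct difference between the guides was 0.25 (SE 0.058, unadjusted p = 0.00606 in limma) and did not pass after adjustment (adjusted p = 0.156). MRPL3, whose bacterial counterpart reaches into the rRNA core near the peptidyl transferase centre, measured 103.05 and 100.41 TPM in LACZ, 123.35 and 118.36 with sgRNA1, and 138.61 and 131.81 with sgRNA3. The groups followed the same order without overlap, and it rose by 0.41 with sgRNA3 (SE 0.050, limma adjusted p = 0.0143), against 0.25 with sgRNA1 (adjusted p = 0.0551). MRPL32, a protein that a protease of the inner membrane trims before it joins the subunit, measured 55.65 and 51.74 TPM in LACZ, 63.98 and 63.37 with sgRNA1, and 65.27 and 66.21 with sgRNA3. Both guide groups lay above LACZ, and it rose by 0.29 with sgRNA3 (SE 0.058, limma adjusted p = 0.0449) against 0.24 with sgRNA1 (adjusted p = 0.0776).

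**Figure D2:**
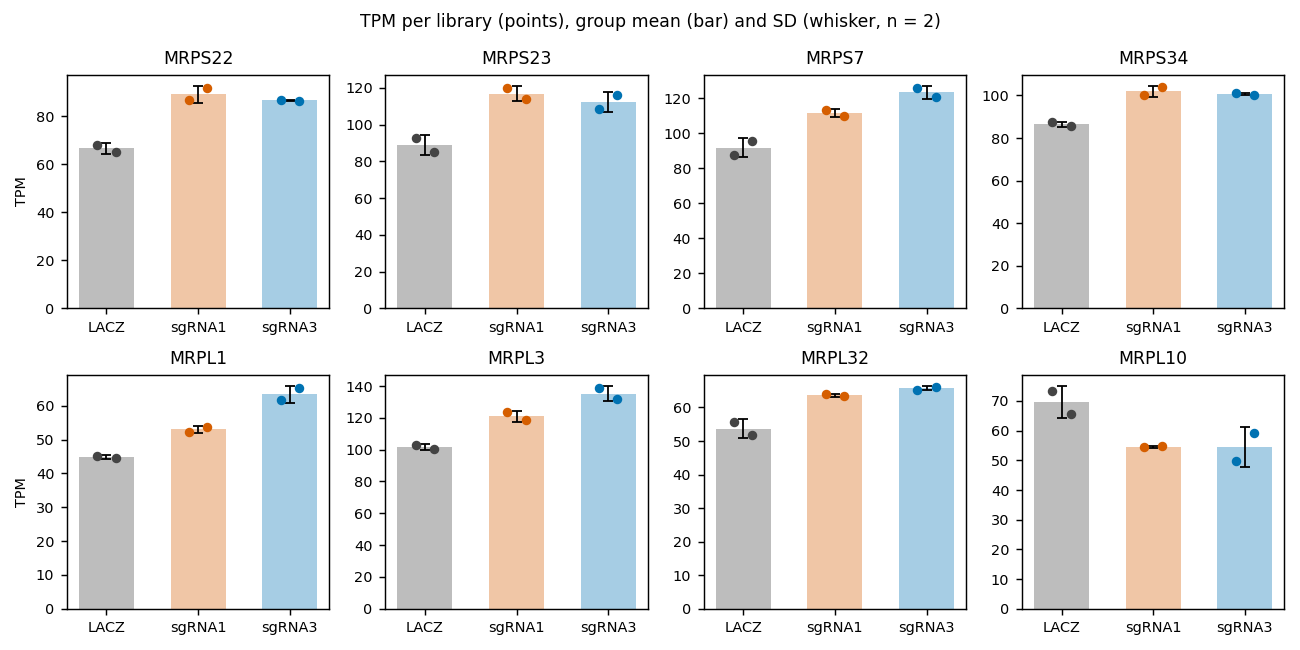
TPM of the 7 members that passed and of MRPL10, which was lower with both guides without passing, in each of the 6 libraries. Points are libraries and each panel starts at 0: in the 7 panels of members that rose, both libraries of each SULF2 guide lie above both LACZ libraries, and in the MRPL10 panel all 4 lie below.

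Leaving out any single library of the 6 removed both calls with sgRNA1, and with sgRNA3 it left 4 of the 7 (MRPL1, MRPL3, MRPS7 and MRPS22) without S1_1 or S1_2 and none of the 7 without LACZ_1, LACZ_2, S3_1 or S3_2. Exons of MRPS22 overlap COPB2 on the opposite strand, exons of MRPS7 overlap GGA3 and MIF4GD, and those of MRPL32 overlap PSMA2, so reads of the partners may enter these values.

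Among members that did not pass, those with the largest change shared by both guides were MRPL22 and MRPL41 upward and MRPL10 and MRPL34 downward in the large subunit. MRPL22, whose bacterial counterpart lines the exit tunnel of the large subunit, measured 67.90 and 59.25 TPM in LACZ, 83.95 and 79.33 with sgRNA1, and 74.63 and 82.41 with sgRNA3. MRPL41, a mitochondria-specific large-subunit protein, measured 67.88 and 55.57 TPM in LACZ, 80.87 and 83.43 with sgRNA1, and 76.22 and 72.45 with sgRNA3. All guide libraries lay above LACZ for both genes, but their LACZ libraries lay apart, and limma adjusted p ranged from 0.0812 (MRPL41, sgRNA1) to 0.161 (MRPL41, sgRNA3). Small-subunit members of this kind, MRPS15 and MRPS26, had log2 changes of 0.22 and 0.14 with sgRNA1 and 0.19 and 0.15 with sgRNA3, none of which passed.

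MRPL10 encodes the protein at the base of the stalk that recruits translation factors. It measured 73.45 and 65.74 TPM in LACZ, 54.40 and 54.85 with sgRNA1, and 49.70 and 59.17 with sgRNA3. All 4 guide libraries lay below LACZ, with log2 changes of -0.34 (limma adjusted p = 0.118) and -0.35 (adjusted p = 0.0959). MRPL34, a small bacterial-type protein of the large subunit, measured 72.17 and 76.62 TPM in LACZ, 51.02 and 57.42 with sgRNA1, and 70.94 and 62.92 with sgRNA3. The sgRNA1 libraries were lowest, with a log2 change of -0.45 (limma adjusted p = 0.0541) against -0.15 with sgRNA3 (adjusted p = 0.340). The difference between guides was 0.30 and did not pass (adjusted p = 0.236). In the small subunit MRPS6 measured 440.91 and 428.76 TPM in LACZ, 396.05 and 382.73 with sgRNA1, and 409.95 and 392.42 with sgRNA3, and MRPS31 measured 17.42 and 19.07, 15.55 and 14.97, and 13.58 and 15.75 TPM. Both had all 4 guide libraries below LACZ, with log2 changes between -0.12 and -0.30 and limma adjusted p from 0.0854 to 0.250.

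Most members shifted little, and the centre of their changes lay above that of all genes. The median log2 change of members was 0.07 with sgRNA1 (range -0.45 to 0.41) and 0.11 with sgRNA3 (range -0.35 to 0.49), against -0.07 and -0.05 over all genes tested. Large-subunit members had medians of 0.09 and 0.17, and small-subunit members of 0.03 and 0.08. The small-subunit medians depend on single libraries: with sgRNA1 the median was -0.0088 without S1_2 and 0.0029 without LACZ_2, and with sgRNA3 it was -0.0031 without LACZ_1 and 0.14 without LACZ_2. The large-subunit median with sgRNA1 was 0.05 without S1_2. A change above 0 was found in 53 of 78 members with sgRNA1 (67.9%, against 40.5% of all genes tested) and in 58 with sgRNA3 (74.4%, against 44.5%). In the large subunit these were 35 and 41 of 49, and in the small subunit 18 and 17 of 29. Such shares depend on where the scaling sets 0, and all genes tested include many at lower levels than the members. The two-sided test of single genes is the only test made here, and the medians are a description.

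**Figure D3:**
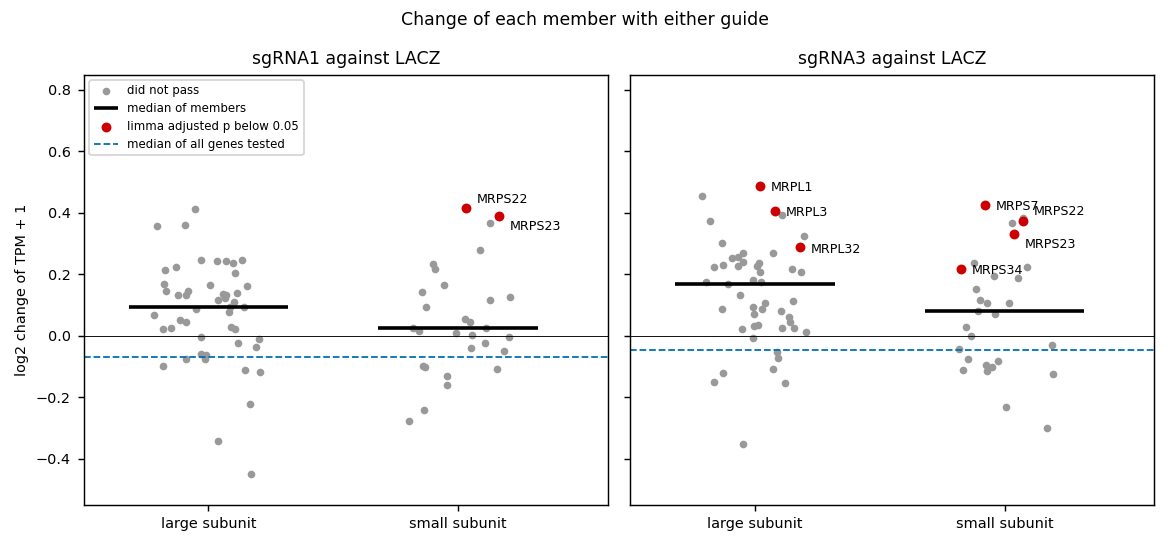
Log2 change of TPM + 1 of each member against LACZ, for sgRNA1 (left) and sgRNA3 (right), with large-subunit and small-subunit genes spread sideways for visibility. Red points passed the limma test, thick bars are the medians of members (0.09 and 0.03 on the left, 0.17 and 0.08 on the right) and the dashed line is the median of all genes tested (-0.07 and -0.05).

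Both libraries of a guide lay above both LACZ libraries in 28 members with sgRNA1 (background 19.8 percent of all genes tested) and in 40 with sgRNA3 (background 24.8 percent). They lay below in 14 members with sgRNA1 (background 35.2 percent) and in 12 with sgRNA3 (background 34.3 percent). All 4 guide libraries lay above both LACZ libraries for 25 of 78 members (32.1%), against 13.2 percent of all genes, and below for 8 (10.3%), against 23.4 percent. By subunit, 19 of 49 large-subunit members (38.8%) and 6 of 29 small-subunit members (20.7%) lay above, and 3 and 5 lay below. Those above included MRPL20, MRPL27, MRPL12, MRPL16, MRPL11 and MRPL51 of the large subunit and MRPS15 and MRPS26 of the small, besides all 7 that passed. Those below were MRPL36, MRPL34, MRPL10, MRPS6, MRPS10, MRPS18B, MRPS27 and MRPS31. With median-of-ratios scaling, tried after the data were seen, 36 members lay above (46.2%, against 19 percent of all genes) and 4 below (5.13%, against 18.4 percent).

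The changes were also read by the origin of the proteins. Placed by their seat in the particle, the 30 large-subunit proteins of bacterial descent had medians of 0.10 and 0.18 with sgRNA1 and sgRNA3, and 15 (50%) had all guide libraries above LACZ, against 13.2% of all genes tested. The 21 large-subunit proteins specific to mitochondria had medians of 0.05 and 0.09, and 4 (19.0%) had all guide libraries above LACZ. In the small subunit the counts above LACZ ran the other way. Its 16 proteins of bacterial descent had medians of 0.03 and 0.08, and 2 (12.5%) had all guide libraries above LACZ, while its 10 specific to mitochondria had medians of 0.03 and 0.21, and 4 (40%) did. All guide libraries lay below LACZ for 3 (10%) of the bacterial and 0 of the mitochondria-specific large-subunit proteins. In the small subunit this held for 2 (12.5%) and 3 (30%), against 23.4% of all genes tested. With sgRNA3 a change above 0 was found in 76.7% and 85.7% of these large-subunit classes, and in 62.5% and 70% of the small-subunit classes. These measures do not repeat the contrast of the counts above LACZ. The classes hold only members, so ribosome proteins with other symbols are not in them. MRPS18A and MRPS18B were classed as specific to mitochondria, although their paralog MRPS18C was classed as bacterial. No test of these differences between classes was made.

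Members whose seat differs from their symbol were read separately. MRPS18A and MRPS30 are part of the large subunit despite their names. MRPS18A measured 79.59 and 82.50 TPM in LACZ, 73.30 and 77.67 with sgRNA1, and 80.16 and 77.23 with sgRNA3, and MRPS30 measured 55.10 and 53.02, 48.81 and 51.39, and 49.96 and 56.02 TPM. Of the other paralogs of MRPS18A, MRPS18B measured 71.36 and 72.60 TPM in LACZ, 66.51 and 67.68 with sgRNA1, and 69.20 and 67.22 with sgRNA3. MRPS18C measured 108.99 and 98.65 TPM in LACZ, 97.45 and 112.51 with sgRNA1, and 131.97 and 136.32 with sgRNA3. Of the 3 paralogs, only MRPS18C had both sgRNA3 libraries above all others, with a log2 change of 0.37 against LACZ (limma adjusted p = 0.0633) and 0.35 against sgRNA1 (adjusted p = 0.176). MRPS36, now counted as a part of the 2-oxoglutarate dehydrogenase complex rather than of the ribosome, measured 25.48 and 28.43 TPM in LACZ, 27.17 and 31.49 with sgRNA1, and 24.09 and 25.13 with sgRNA3. The sgRNA1 libraries overlapped LACZ, both sgRNA3 libraries lay below it, and it did not pass with either guide.

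The guides were compared directly in the same fit. Of the 78 members 0 passed in sgRNA3 against sgRNA1 by limma, against a background of 0.578 percent of all genes tested. An unadjusted limma p below 0.05 was found in 10 members, with 7 higher and 3 lower in sgRNA3. Of all 16610 genes tested, 1576 were higher and 974 lower at that p. The smallest adjusted p was 0.130, for MRPL38, a mitochondria-specific large-subunit protein. It measured 51.79 and 50.46 TPM with sgRNA1 and 63.75 and 60.59 with sgRNA3, while LACZ had 52.26 and 52.65. MRPS33 (log2 difference 0.26) was also higher in both sgRNA3 libraries, and MRPS21 (log2 difference -0.21) lower. These 3 were picked out after their values were seen. A p that misses the threshold with 2 libraries a group does not show that the guides act alike.

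Summed over genes, members took 0.631% and 0.621% of all TPM in LACZ, 0.647% and 0.662% with sgRNA1, and 0.671% and 0.677% with sgRNA3. In these shares of TPM, guide libraries lay above LACZ, and sgRNA3 above sgRNA1. The order of the guides may change with scaling and was not examined under the alternatives. The median-of-ratios factor, by which a library is divided, was 0.950 for S1_2 and 0.993 for S3_1. Such scaling therefore raises S1_2 relative to both sgRNA3 libraries. The sum over large-subunit genes was 4049 ± 82.8 TPM in LACZ (SD, n = 2), 4273 ± 76.2 with sgRNA1 and 4404 ± 47.0 with sgRNA3, and over small-subunit genes 2214 ± 10.9, 2269 ± 32.2 and 2336 ± 3.49. The ratio of large to small sums was 1.86 and 1.80 in LACZ, 1.88 and 1.89 with sgRNA1, and 1.87 and 1.90 with sgRNA3. Guide libraries lay above both LACZ libraries in this ratio, but narrowly, with 1.869 in S3_1 and 1.861 in LACZ_1. With members placed by their seat in the particle they overlapped, with 2.06 in S3_1 and 2.07 in LACZ_1. Without the most abundant member of each subunit, LACZ_1 (2.122) lay above all guide libraries (2.101 to 2.121). In bulk RNA, a change in the mix of cells and a change in RNA per cell cannot be told apart.

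The 16S rRNA fell by more, on the log2 scale, than any member changed. MT-RNR2, the 16S rRNA of the large subunit, measured 7800 and 7597 TPM in LACZ, 4895 and 4706 with sgRNA1, and 4696 and 4689 with sgRNA3. It fell with both guides, by 0.68 on the log2 scale with sgRNA1 (limma adjusted p = 0.000827) and by 0.71 with sgRNA3 (adjusted p = 0.00116). MT-RNR1, the 12S rRNA of the small subunit, measured 1059 and 1060 TPM in LACZ, 976 and 978 with sgRNA1, and 1019 and 1064 with sgRNA3, and did not pass (limma adjusted p = 0.0969 and 0.654). The ratio of 16S to 12S was 7.36 and 7.17 in LACZ, 5.01 and 4.81 with sgRNA1, and 4.61 and 4.41 with sgRNA3. The ratio of summed protein messages between the subunits lay between 1.80 and 1.90 in all 6 libraries. That ratio is of sums over many genes and the rRNA ratio is of single transcripts, so the measures are unlike. How rRNA was removed or selected in these libraries is not stated in the labels, and its part in the rRNA values was not tested.

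**Figure D4:**
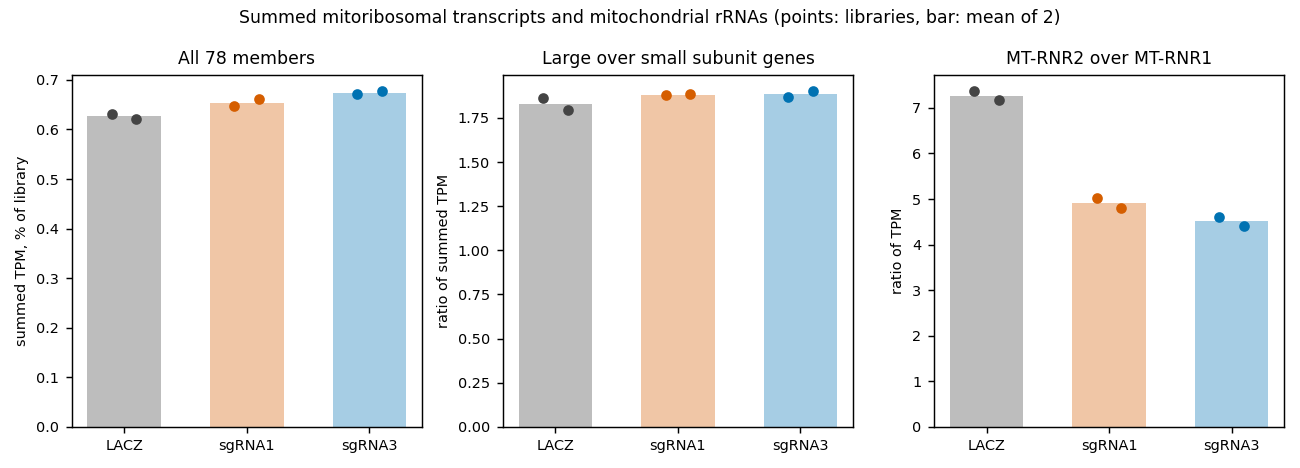
Summed TPM of the 78 members as a percentage of each library (left), the ratio of summed TPM of large-subunit to small-subunit members (middle) and the ratio of the TPM of MT-RNR2 to MT-RNR1 (right). Points are libraries, bars the means of 2, and all axes start at 0: the subunit ratio stays between 1.80 and 1.90 while the rRNA ratio falls from 7.36 and 7.17 in LACZ to between 4.41 and 5.01 with the guides.

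Other genes of mitochondrial translation were read from lists, and no test of a list was made. Over all genes tested, 1.69 percent were called upward and 4.31 percent downward with sgRNA1, and 3.84 and 5.25 percent with sgRNA3. Of the 5 ribosome proteins with other symbols (DAP3, AURKAIP1, CHCHD1, PTCD3 and GADD45GIP1), 0 passed by limma with either guide, and AURKAIP1 came closest with log2 changes of 0.20 and 0.25 (adjusted p = 0.0977 and 0.0520). Of 31 assembly factors, MALSU1, which keeps the unfinished large subunit from joining, rose with sgRNA1 by 0.38 (limma adjusted p = 0.0499). With sgRNA3, 3 rose and 0 fell: GRSF1, an RNA-binding protein of mitochondrial RNA granules, by 0.29 (adjusted p = 0.0396), NGRN, which acts on the 16S rRNA, by 0.32 (adjusted p = 0.0408), and NDUFAB1, the mitochondrial acyl carrier protein, by 0.24 (adjusted p = 0.0429). Of 25 translation factors, 0 passed with sgRNA1 and 2 rose with sgRNA3. GFM1, the elongation factor that moves the ribosome along the message, rose by 0.57 (limma adjusted p = 0.0180), from 32.34 and 36.51 TPM in LACZ to 51.79 and 51.01. LETM1, an inner-membrane ion exchanger rather than a translation factor proper, rose by 0.89 (adjusted p = 0.0169). C12orf65, a release factor relative that rescues stalled ribosomes, and SLIRP, an RNA-binding protein, did not pass with either guide.

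For the lists that follow, the background of calls in either direction was 6 percent of all genes with sgRNA1 and 9.08 percent with sgRNA3. Of 20 factors of mitochondrial transcription, RNA processing and biogenesis, 1 fell with sgRNA1 and 4 rose and 1 fell with sgRNA3. Those that rose were TFAM, which packages and transcribes mitochondrial DNA (0.30), ELAC2, which trims tRNA ends (0.61), PNPT1, a mitochondrial RNA nuclease (0.75), and KIAA0391, a subunit of mitochondrial RNase P (0.43), with limma adjusted p from 0.0175 to 0.0380. The gene that fell was MYC, a transcription factor of growth genes, which measured 281.30 and 282.55 TPM in LACZ, 107.06 and 109.09 with sgRNA1, and 137.84 and 128.78 with sgRNA3. It fell by 1.38 with sgRNA1 (limma adjusted p = 0.000587) and by 1.08 with sgRNA3 (adjusted p = 0.00128). Of 15 transcripts of the mitochondrial genome, 4 rose and 1 fell with sgRNA1, and 2 rose and 2 fell with sgRNA3. MT-ND1 and MT-ND2, messages for complex I, rose with both guides by 0.35 to 0.42. MT-ND6 and MT-CYB rose with sgRNA1, by 0.23 each, and MT-CO1, for complex IV, fell with sgRNA3 by 0.18. The difference between guides passed for 0 genes of any of these lists, against 0.578 percent of all genes tested.

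Between 15563 and 15923 genes per library reached 1 TPM, with both LACZ libraries highest, and transcripts of the mitochondrial genome made up 10.3% to 11.2% of TPM. Of 8 ductal epithelial markers 7 were at or above 1 TPM in some library (KRT19 up to 2915 TPM) and CFTR stayed under 1 in all 6. The fibroblast list of 6 genes, mostly COL1A1, summed to 77.5 to 77.9 TPM in LACZ, 58.6 to 60.5 with sgRNA1 and 37.6 to 41.7 with sgRNA3. The leukocyte list summed to 86.5 to 107 TPM, nearly all CD68, with PTPRC and CD3E under 1. Endothelial markers summed to at most 4.70 TPM and acinar markers to at most 1.48, islet markers to at most 0.16 with INS and GCG at 0. The part of these lists in the members' values was not tested.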

How the data were processed

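RNA-seq of 6 CFPAC-1 libraries was analysed from the authors' deposited table of TPM values. Per the submitters' processing notes the tools were HISAT2 2.1.0, RSEM 1.3.1 and DESeq2 1.24.0 on GRCh38. Strandedness, rRNA handling and the authors' annotation release are not stated there. Because TPM keeps no depth, the depth of the libraries is unknown. The H1 and H3 columns were taken as the samples titled S1 and S3, which share their guide and replicate numbers.

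Genes with at least 1 TPM in at least 2 libraries (16610) entered a single limma 3.58.1 fit (R 4.3.3, package data.table, version 1.17.8) of the 3 groups on log2(TPM + 1), with an intensity trend (3 residual and 2.34 prior degrees of freedom). Adjusted p-values are two-sided and Benjamini-Hochberg adjusted over all genes tested, with a threshold of 0.05. Fold changes on this scale understate those of low genes. The fit was tested on simulated data. DESeq2 was not used here, since TPM are not counts.

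Members and gene lists were chosen with earlier results of these data known. Named were members that passed, the 3 highest and 3 lowest of each subunit in LACZ, paralogs or proteins whose seat differs from their symbol, the 2 members up and 2 down per subunit that did not pass with the largest change shared by both guides, up to 4 genes per list by p, and SULF2. Other named genes were chosen after their values were seen. Coordinates of genes come from GENCODE 29 and promoters from RefSeq. Alternatives were pseudocounts of 0.1 and 5, no filter or 5 TPM, median-of-ratios and quantile scaling, removal of mitochondrial genome transcripts, no trend, only the groups compared, a replicate block and each library left out. Python 3.11.15, pandas 2.3.3 and matplotlib 3.10.9 were used.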

Additional observations from a re-analysis of the deposited data

How the results depend on the processing

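The number of members called moved with the settings, and every main call kept its direction. With sgRNA1 (2 members) the count was 1 without a filter (1.28%, against 1.84% of all genes). At 5 TPM it was 6 (7.69%, against 11.3%), 5 higher and MRPL34 lower. With median-of-ratios scaling it was 9 (11.5%, against 7.15%), and with quantile normalization 7 (8.97%, against 6.03%). It was 0 without the variance trend (1.78% of all genes) and 0 when only the compared groups were fitted (3.02%). With sgRNA3 (7 members) it was 4 without a filter (5.13%, against 2.66% of all genes) and 10 at 5 TPM (12.8%, against 15.2%). It was 0 without the trend (3.35% of all genes) and 4 with only the compared groups (5.13%, against 6.21%). With the replicate block it was 0 with sgRNA1 (2.27% of all genes) and 2 with sgRNA3, MRPL1 and MRPL3 (2.56%, against 3.38%). Same-numbered libraries did not deviate together over all genes tested (correlations -0.02, 0.01 and -0.03). The labels give them only a shared number, and no pairing is assumed. These correlations cannot show whether such libraries were prepared together. Where a library was left out, its group, left with 1 library, was assumed to vary like the others. Of 144 values of the 9 main calls under alternatives, 74 no longer passed, and of 336 of named members that did not pass, 17 did.

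Median-of-ratios scaling moved the median of all genes from -0.07 to 0.00 (sgRNA1) and from -0.05 to -0.00 (sgRNA3), and the split of all calls from 281 higher and 716 lower to 610 and 578 (sgRNA1), and from 637 and 872 to 1020 and 806 (sgRNA3). Quantile normalization gave 442 and 560, and 776 and 808. With median-of-ratios scaling the sgRNA1 medians were 0.18 (large subunit) and 0.11 (small), and 4 rather than 8 members lay below LACZ in all guide libraries. Leaving out a library gave large-subunit medians of 0.05 to 0.13 (sgRNA1) and 0.13 to 0.17 (sgRNA3), and small-subunit medians of -0.0088 to 0.05 (sgRNA1) and -0.0031 to 0.14 (sgRNA3). The ratio of large to small sums was 2.04, 2.08 and 2.08 by seat in the particle, and 2.09, 2.1 and 2.12 without the most abundant member of each subunit (LACZ, sgRNA1, sgRNA3). These are group means, and guide libraries overlapped LACZ in both settings.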
